A study of Mus musculus with 78 samples.

Results

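The 10 imprinted genes described here are transcribed from the chromosome inherited from the father, and were followed through TRIM28 degradation in mouse embryonic stem cells (mESCs). They were chosen by name as Mest, Peg3, Peg10, Sgce, Plagl1, Snrpn, Nnat, Impact, Ndn and Usp29, and make up 10 of the 54446 genes in the RNA-seq tables. The mESCs carried TRIM28 with an N-terminal FKBP degron at its own locus (TRIM28-FKBP, made in the V6.5 line, with an mRuby2 reporter) and received either DMSO or 500 nM dTAG-13, a ligand that sends the tagged protein to the proteasome. RNA-seq covered this line in DMSO and in dTAG-13 for 2 h, 6 h, 24 h or 96 h, untagged parental V6.5 mESCs without treatment, neural progenitor cells (NPCs) in DMSO, and a TRIM28-FKBP line with Dox-inducible hairpins against 4 ERV families (shERV line) in DMSO, in dTAG-13 for 24 h and in dTAG-13 with Dox, each with 3 libraries. TT-SLAM-seq, a measure of nascent RNA, covered DMSO and 2 h, 6 h and 24 h with 3 libraries each. ChIP-seq peaks were given for DMSO and 24 h of dTAG-13, from 3 libraries each for the histone marks H3K9me3 and H3K27Ac and from 2 each for RNA polymerase II (RNAPII) and MED23, a subunit of Mediator. The tagged lines came from single picked colonies, so a difference between lines is also a difference between clones. The labels give a Dox pretreatment for all 3 groups of the shERV line, whereas the methods of the study describe Dox for the hairpin-induced group, and the group titles were followed here. Where nothing states that libraries came from separate cultures, the p-values measure only the spread between these libraries.

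Imprinted genes are expressed according to the parent that transmitted them. At most of these loci an imprinting control region is DNA-methylated on the maternal copy, which is silent, and unmethylated on the paternal copy, which is active. Zinc-finger proteins such as ZFP57 and ZFP445 bind the methylated copy and recruit TRIM28, which brings the histone methyltransferase SETDB1 and with it H3K9me3. None of the values below separates the parental copies: a higher level can come from either copy, and in bulk libraries a change in RNA per cell cannot be told apart from a change in the share of cells that express a gene.

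The genes lie at 8 loci (GRCm38/mm10, positions as in the deposited tables). Mest, the mesoderm-specific transcript, which encodes a protein with a hydrolase fold, spans chr6:30723547-30748465 on the plus strand. Peg10, a gene derived from a retrotransposon that is needed for the placenta, spans chr6:4747306-4760517, and its start lies 99 bp from that of Sgce, the gene of a membrane sarcoglycan, which is read in the opposite direction from chr6:4674350-4747207. Peg3, the gene of a zinc-finger transcription factor, spans chr7:6703892-6730431 on the minus strand, and its start lies 147 bp from that of Usp29, a deubiquitinase gene on the plus strand at chr7:6730578-6967219. Plagl1, which encodes a zinc-finger transcription factor that restrains growth, spans chr10:13060504-13131694. Snrpn, the gene of a spliceosomal Sm protein, spans chr7:59982495-60140219 on the minus strand, and Ndn, which encodes the MAGE-family protein necdin, lies in the same imprinted domain at chr7:62346569-62350262. Nnat, the gene of the small membrane protein neuronatin, spans chr2:157560078-157562522. Impact, which encodes a regulator of translational control, is the remaining locus. Snrpn shares its strand and exons with Snurf, Nnat lies opposite Blcap, Mest hosts Mir335 and meets Copg2 on the other strand, and Usp29 overlaps Zim3 and several unnamed transcripts, so reads of these pairs may have been divided between them in the counting.

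Promoter sequences of 300 bases (250 before and 50 after the annotated start, RefSeq on GRCm38.p6) were found for 7 of the 10 genes, and DMSO H3K9me3 peaks overlapped 7 of the 12 entries. Of these 7, 5 are shown, and the other two, a Mest entry shifted by 3 bases and the Usp29 entry, which lies on the opposite strand of the Peg3 window, repeat most of the same bases. Capitals mark the ZFP57 core hexamer TGCCGC or its complement GCGGCA, which 11.6% of the 32851 RefSeq promoters of this length hold on either strand and 1.53% hold at 2 or more places. A match is a description of the letters and not a measured binding site.
Mest, chr6:30737800-30738099, plus strand: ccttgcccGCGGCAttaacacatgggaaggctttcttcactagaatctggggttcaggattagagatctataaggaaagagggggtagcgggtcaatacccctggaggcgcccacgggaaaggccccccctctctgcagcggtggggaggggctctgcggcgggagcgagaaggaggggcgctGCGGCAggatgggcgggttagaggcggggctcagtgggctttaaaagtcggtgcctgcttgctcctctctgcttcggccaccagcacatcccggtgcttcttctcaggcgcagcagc
Nnat, chr2:157559828-157560127, plus strand: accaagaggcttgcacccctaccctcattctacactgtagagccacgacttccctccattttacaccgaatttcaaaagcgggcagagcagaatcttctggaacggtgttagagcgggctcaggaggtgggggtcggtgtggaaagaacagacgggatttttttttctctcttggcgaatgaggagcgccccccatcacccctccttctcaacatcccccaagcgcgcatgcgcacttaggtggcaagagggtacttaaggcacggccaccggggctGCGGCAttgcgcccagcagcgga
Plagl1, chr10:13090582-13090881, plus strand: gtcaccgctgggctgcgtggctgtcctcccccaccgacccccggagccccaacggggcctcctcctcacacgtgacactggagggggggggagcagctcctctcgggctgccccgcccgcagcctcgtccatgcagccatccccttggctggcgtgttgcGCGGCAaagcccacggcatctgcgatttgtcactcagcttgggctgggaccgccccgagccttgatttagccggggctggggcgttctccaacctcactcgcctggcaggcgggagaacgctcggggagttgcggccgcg
Snrpn, chr7:60005150-60005449, minus strand: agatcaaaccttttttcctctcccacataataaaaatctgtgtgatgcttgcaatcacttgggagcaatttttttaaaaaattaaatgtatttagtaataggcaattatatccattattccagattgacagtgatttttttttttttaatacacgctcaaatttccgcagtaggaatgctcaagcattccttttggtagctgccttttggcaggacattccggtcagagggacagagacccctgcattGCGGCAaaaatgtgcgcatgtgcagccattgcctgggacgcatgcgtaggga
Peg3, chr7:6730370-6730669, minus strand: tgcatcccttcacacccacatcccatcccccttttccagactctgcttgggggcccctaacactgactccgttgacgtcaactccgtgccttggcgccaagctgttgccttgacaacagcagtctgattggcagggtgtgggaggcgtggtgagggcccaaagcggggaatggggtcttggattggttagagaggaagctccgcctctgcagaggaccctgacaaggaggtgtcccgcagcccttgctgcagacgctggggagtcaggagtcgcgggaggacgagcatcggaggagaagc
The Mest window holds the hexamer at 2 places, 242 and 67 bases before the start. Nnat, Plagl1 and Snrpn hold it once each and the Peg3 window does not hold these letters. The window of Plagl1 has 26 CpG dinucleotides, those of Mest and Nnat 17 each, that of Peg3 13 and that of Snrpn 7, against a median of 7 over all RefSeq promoters. All 300 bases of the Mest, Nnat and Plagl1 windows lay in H3K9me3 peaks in each of the 3 DMSO libraries, and none in the 3 dTAG-13 libraries. The Peg3 window was covered whole in DMSO replicates 1 and 2 and not at all in replicate 3. Of the Snrpn window, 213, 258 and 102 bases were covered in the 3 DMSO libraries and 76 in dTAG-13 replicate 2.

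To place the genes in the data, steady-state RNA was compared first, in TPM, a unit per transcript length and per library total. Relative sequencing depth of the 30 RNA-seq libraries ran from 0.3313 to 1.73 of the median library, and the shallowest was replicate 1 at 24 h. Trim28 mRNA averaged 624 TPM in DMSO, 192 TPM at 96 h and 1398 TPM in parental cells. The ligand acts on the protein, so these values do not report degradation. The summed level of 8 mESC markers lay between 4438 and 4835 TPM in DMSO, 2970 and 3267 TPM at 24 h and 380 and 443 TPM at 96 h, and that of 8 neural progenitor markers lay between 3549 and 3614 TPM in NPCs against 67.2 to 68.2 TPM in DMSO, so that stem cell markers were low at 96 h and the NPC libraries carried neural markers.

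In DMSO the 10 genes spanned a wide range of levels, which TPM gives per length. Peg10, Snrpn and Impact were the highest, at means of 340, 210 and 94.4 TPM. Peg3 followed at 41.1 TPM, then Sgce at 9.66, Plagl1 at 7.77 and Ndn at 6.66 TPM. Usp29, Nnat and Mest were near or below the filter of 1 TPM, at 1.53, 1.06 and 0.442 TPM. All 10 genes passed the filter in each RNA-seq fit, and Mest did so through the groups where it is high, so that its calls are not independent of the filter.

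**Figure D1:**
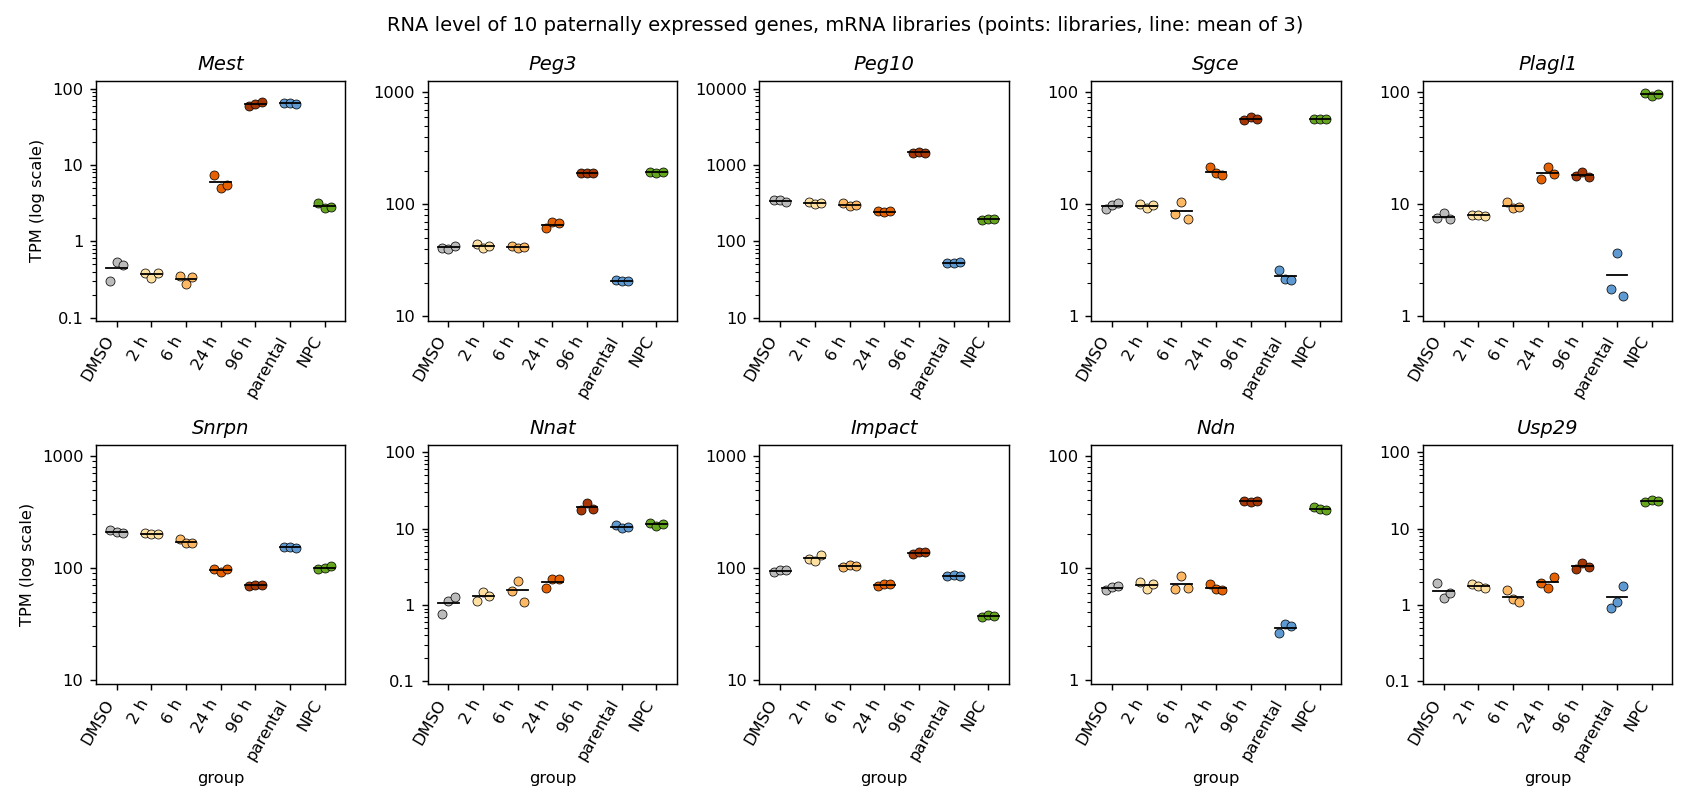
TPM of the 10 genes on a log axis, 1 panel per gene, for each step of the dTAG-13 time course, for parental mESCs and for NPCs; points are libraries and lines are group means. Mest lay below 0.54 TPM in every DMSO, 2 h and 6 h library and above 59 TPM in every 96 h and parental library, while Snrpn fell from above 204 TPM in DMSO to below 71 TPM at 96 h.

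The time course asked when the genes respond to loss of TRIM28. At 2 h and 6 h no member rose or fell by more than 2-fold at an adjusted p below 0.05 (limma on log2(TPM + 0.5), Benjamini-Hochberg over the 17922 genes tested), where 0.374% and 0.965% of all genes did. Without the fold limit, 1 member was higher at 2 h, where 8.25% of genes were, and 2 were higher and 2 lower at 6 h, where 18.4% and 15.5% were. At an unadjusted p below 0.05 the members numbered 2 and 5, where 5147 and 7762 of the 17922 genes tested passed. By the adjusted p, the member higher at 2 h was Impact, at 121, 116 and 132 TPM against 92.8, 95.3 and 95.1 TPM in DMSO. Its log2 difference was 0.38 ± 0.04 (SE, adjusted p = 7.2e-05). At 6 h Snrpn was lower by a log2 difference of -0.29 ± 0.04 (adjusted p = 0.00015) and Peg10 by -0.16, while Plagl1 was higher by 0.30 and Impact by 0.14.

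At 24 h Mest and Plagl1 rose and Snrpn fell. These were 2 members higher, where 10.1% of all genes were called higher, and 1 lower, where 2.01% were called lower. By the adjusted p alone 5 members were higher and 3 lower, against 42.9% and 25.0% of all genes. The median log2 change was 0.48 over the 10 members and 0.13 over all genes tested. When each library was instead centred on its median gene, all changes at 24 h moved down by 0.29, and the split of called genes went from 1819 higher and 360 lower to 886 higher and 919 lower.

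Mest RNA measured 0.307, 0.534 and 0.484 TPM in the DMSO libraries and 7.36, 5.01 and 5.55 TPM at 24 h. The groups lay far apart, and 70.1% of all genes had groups that did not overlap in this comparison. The log2 difference was 2.77 ± 0.13 (SE, adjusted p = 5.7e-10), a 6.83-fold change on the log2(TPM + 0.5) scale, which understates the change of genes near 0.5 TPM. At 96 h Mest reached 59.3, 62.5 and 67.0 TPM, a log2 difference of 6.08 ± 0.13 (adjusted p = 1.8e-14), the largest of the 10 members in this comparison.

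Plagl1 measured 7.55, 8.37 and 7.40 TPM in DMSO, 16.8, 21.4 and 18.6 TPM at 24 h and 17.9, 19.4 and 17.5 TPM at 96 h. It rose by a log2 difference of 1.23 ± 0.08 at 24 h (adjusted p = 1.3e-08) and 1.18 ± 0.08 at 96 h (adjusted p = 4.5e-09), and the 24 h and 96 h libraries overlapped. Under centring on the median these changes were 0.94 and 0.91, under the 2-fold limit.

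Snrpn went the other way. Its libraries measured 218, 209 and 204 TPM in DMSO, 98.7, 92.2 and 97.4 TPM at 24 h and 69.0, 70.8 and 70.9 TPM at 96 h. The decrease was -1.13 ± 0.04 at 24 h (adjusted p = 5.6e-11) and -1.57 ± 0.04 at 96 h (adjusted p = 8.2e-14) on the log2 scale, with no overlap between groups, a separation that 83.1% of all genes had between DMSO and 96 h.

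Peg3, Sgce and Nnat had higher values at 24 h that stayed under the 2-fold limit, by 0.67 (adjusted p = 2.3e-08), 0.97 (adjusted p = 9.8e-07) and 0.70 (adjusted p = 0.0027) on the log2 scale. Peg10 and Impact had lower ones, by -0.47 and -0.41. The neighbours Peg10 and Sgce, whose starts lie 99 bp apart, therefore differed in sign at 24 h. Peg10 measured 247, 241 and 249 TPM against 344, 344 and 331 TPM in DMSO, while Sgce measured 21.4, 18.9 and 18.2 TPM against 9.03, 9.78 and 10.2 TPM. Sgce passed the fold limit without DMSO replicate 3 (log2 difference 1.01) and without 24 h replicate 3 (1.02). Ndn was at 0.00 and Usp29 at 0.30 on the log2 scale at 24 h, neither with an adjusted p below 0.05.

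At 96 h 7 members rose and Snrpn fell, where 20.3% of all genes were called higher and 12.4% lower. By the adjusted p alone 9 were higher and 1 lower, against 42.9% and 37.4% of all genes. The median log2 change was 2.16 over the members and 0.05 over all genes tested. Centring moved all changes at 96 h down by 0.28 and turned the split of called genes from 3634 higher and 2228 lower to 2713 higher and 3364 lower.

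Nnat measured 17.7, 21.4 and 17.9 TPM at 96 h against 0.760, 1.13 and 1.29 TPM in DMSO, a log2 difference of 3.65 ± 0.17 (adjusted p = 7.3e-11). Ndn, not called at any earlier time, measured 39.9, 39.1 and 39.3 TPM against 6.37, 6.77 and 6.83 TPM (2.48 ± 0.09, adjusted p = 3.7e-12). The 96 h libraries of both genes lay above all others of the time course.

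Peg10, lower than DMSO at 24 h, measured 1451, 1501 and 1455 TPM at 96 h, 2.11 ± 0.04 above DMSO on the log2 scale (adjusted p = 3.8e-15). Sgce, its divergent neighbour, measured 56.1, 60.7 and 57.8 TPM (2.53 ± 0.10, adjusted p = 8.7e-12). Peg3 measured 191, 189 and 192 TPM against 40.8, 39.9 and 42.6 TPM (2.20 ± 0.05, adjusted p = 1.8e-14). Its divergent neighbour Usp29 measured 2.98, 3.55 and 3.13 TPM against 1.92, 1.25 and 1.43 TPM, a log2 difference of 0.88 that passed the adjusted p (4.9e-05) and not the fold limit, except without DMSO replicate 1 (1.02). Impact measured 134, 139 and 138 TPM, 0.53 above DMSO, also under the fold limit.

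**Figure D2:**
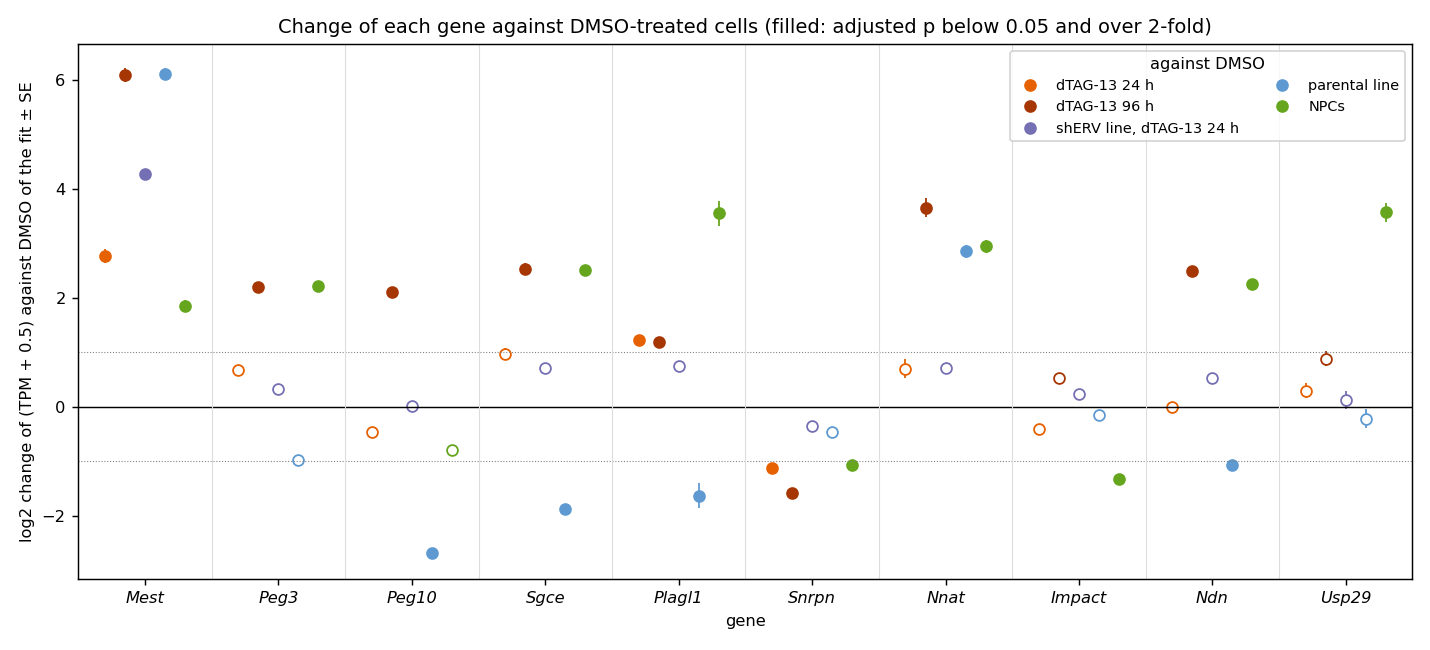
Log2 difference in TPM + 0.5 from DMSO of the same fit for each of the 10 genes, for 24 h and 96 h of dTAG-13, the shERV line with dTAG-13, parental mESCs and NPCs; filled points passed an adjusted p below 0.05 and 2-fold (dotted lines), and bars are standard errors. Mest reached 6.08 at 96 h and 6.11 in parental cells, and Snrpn lay below 0 at 24 h and at 96 h.

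Other imprinted genes moved in both directions. Of 20 other paternally expressed genes, 16 were tested, and 1 rose and 2 fell at 24 h while 3 rose and 2 fell at 96 h. Airn, the antisense transcript that silences Igf2r, rose by 1.41 at 24 h and 3.72 at 96 h, and Igf2, the fetal growth factor, by 2.88 at 96 h, whereas Magel2, a neighbour of Ndn, was at -1.14 at 24 h and -1.29 at 96 h on the log2 scale. Of 30 maternally expressed genes, 24 were tested, and 3 rose at 24 h (H19 by 2.06, Zim1 by 1.72, Calcr by 1.19) and 11 rose and 1 fell at 96 h (H19 by 3.71, Zim1 by 3.15). Their median log2 changes at 96 h were 0.50 and 0.60 against 2.16 for the 10 genes described here. The 10 genes and the lists were chosen with earlier results of these data known, so this difference is a description and not a test. Of 27 genes next to these loci, 19 were tested, and 3 rose and 1 fell at 24 h and 7 rose and 1 fell at 96 h. Zim1 and Calcr were among those that rose at 24 h. They lie beside Peg3 and beside the Peg10 and Sgce pair, and both belong also to the maternally expressed list.

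Of 15 genes that write, erase or protect methylation imprints, all of them tested, 2 fell at 24 h and 10 at 96 h. At 24 h these were Dnmt3l and Dnmt3b, both part of the de novo methylation machinery, at log2 changes of -1.67 and -1.04. At 96 h they included the demethylase Tet1 at -3.54, Dnmt3l at -3.11 and Zfp57 at -2.47. Zfp57 averaged 444 TPM in DMSO, 334 TPM at 24 h and 79.4 TPM at 96 h. None of the 15 was called higher at either time. By the adjusted p alone 3 were higher at 24 h, Zfp445 at 0.54, Atrx at 0.26 and Setdb1 at 0.13, and 0 at 96 h. These were named after their values had been seen.

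Markers of other cell types moved with the 96 h values. Feeder fibroblasts, per the methods of the study, were removed before mESCs were seeded for RNA-seq. Of 16 feeder fibroblast markers tested, 14 rose at 96 h and none fell, led by Col1a1 at 4.40 and Col3a1 at 4.33. Their summed level was 3024 to 3136 TPM at 96 h and 353 to 368 TPM in DMSO, with 5 of 7 defining markers below 1 TPM in DMSO and 1 at 96 h. Of 8 endoderm markers tested, 5 rose and 1 fell, and all 8 stem cell markers fell. Of 5 neural progenitor markers tested, 1 rose and 1 fell, and of 4 trophoblast markers 1 rose. The part of these other cell types in the 96 h values was not tested. Most of the feeder sum was Tagln, a gene of smooth muscle and fibroblast contraction, at a mean of 299.7 TPM in DMSO, 258.1 TPM at 24 h and 2588 TPM at 96 h. The other 16 markers, summed after Tagln had been seen to dominate, lay between 58.6 and 60.3 TPM in DMSO, 88.0 and 91.8 TPM at 24 h and 485 and 511 TPM at 96 h and were thus higher at 24 h than in DMSO, as Mest was. Their part in the 24 h level of Mest was not tested. Within the list, Postn, Pdgfrb and Mmp2 had risen at 24 h, by 1.29, 1.26 and 1.12. They were the 3 called of 16 tested, where 10.1% of all genes were called higher. The median log2 change of the list at 24 h was 0.12, against 0.13 over all genes. Mmp2 alone averaged 11.4 TPM in DMSO and 25.3 TPM at 24 h. Lum, a defining marker, was at 0 in DMSO and averaged 0.041 TPM at 24 h and 0.398 TPM at 96 h. Of the remaining defining markers, Dcn, Thy1 and Prrx1 had lower means at 24 h than in DMSO and Col1a1 and Col3a1 higher ones.

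H3K9me3 was examined at the starts of the genes because this is the mark that TRIM28 brings. In DMSO 6 of the 10 gene starts (Peg3, Usp29, Peg10, Sgce, Nnat and Impact) had a peak within 5 kb in each of the 3 libraries. After 24 h of dTAG-13, 0 of 10 had a peak in any of the 3 libraries. A peak in every DMSO library was found at 13.9% of all 54446 gene starts, and a peak in every DMSO library and no dTAG-13 library at 4.24%. The 6 genes are 4 loci, since Peg3 and Usp29, and Peg10 and Sgce, share their peaks. The two-sided exact permutation test over libraries gave p = 0.1, the smallest that 3 against 3 allows.

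**Figure D3:**
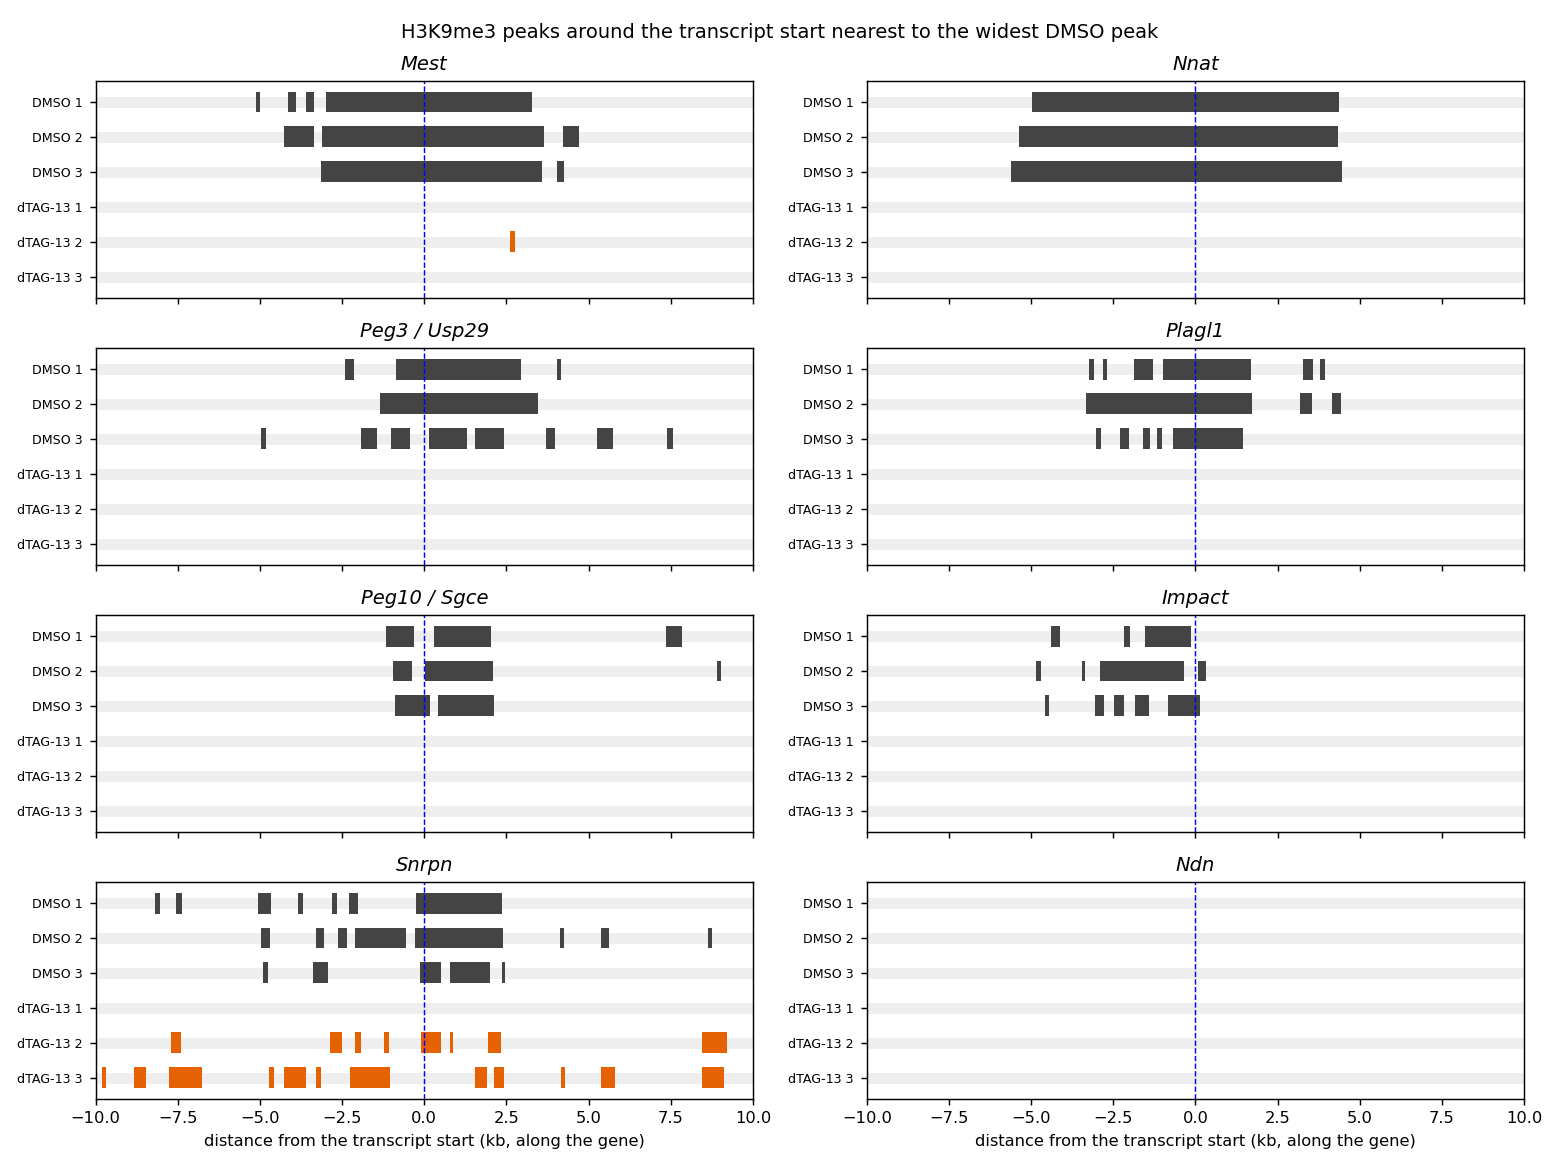
H3K9me3 peaks of the 3 DMSO and the 3 dTAG-13 libraries around the annotated transcript start nearest to the widest DMSO peak at the 8 loci; the horizontal axis is the distance from that start in kb and each bar is a deposited peak. Wide DMSO peaks lay over Mest and Nnat in all 3 libraries, and no dTAG-13 library had a peak over the Nnat promoter.

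The number of peaks differed between libraries and has to be read beside these counts. The DMSO libraries held 118318, 126470 and 104579 peaks and reached 18.1% to 21.6% of all gene starts. The dTAG-13 libraries held 11474, 105690 and 147611 peaks and reached 2.47%, 14.3% and 16.5%. Replicates 2 and 3 with dTAG-13 thus had about as many peaks as DMSO libraries and still none by a member's start, and the count without replicate 1 was also 0. The peaks of these replicates covered 48.93 and 72.1 Mb, against 70.64, 106.55 and 79.04 Mb in DMSO. Replicate 2 thus covered less of the genome than any DMSO library. Among the 10000 peaks of highest fold enrichment in each library, and among peaks with a −log10 q of at least 5, 1 to 3 members had a peak in each DMSO library and again 0 with dTAG-13.

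The annotated start of a gene is not always its imprinted promoter. Mest, Plagl1 and Snrpn had their DMSO H3K9me3 peaks inside the gene. Each had a peak over a downstream promoter in all 3 DMSO libraries, and other peaks lay elsewhere in these genes. Within 5 kb of any annotated transcript start, a criterion added after the peaks had been seen, 9 of 10 genes had a peak in all 3 DMSO libraries (Ndn was the exception), where 15.7% of all genes did. With dTAG-13 the numbers were 0, 2 and 1. The pattern of a peak in every DMSO and no dTAG-13 library thus held for 7 of the 10, against 5.01% of all genes. The remaining peaks were at Mest in replicate 2 and at Snrpn in replicates 2 and 3.

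At Mest, the widest DMSO peaks spanned 6269, 6750 and 6707 bp with fold enrichments of 6.32, 5.31 and 4.92, and lay over the promoter printed above. The annotated transcript start nearest to the peak is 14508 bp inside the gene. With dTAG-13, replicates 1 and 3 had no peak in the gene and replicate 2 had 1 of 157 bp. At Nnat a single peak covered the whole gene in each DMSO library, 9321, 9695 and 10048 bp wide with fold enrichments of 6.30, 6.52 and 5.25, and no dTAG-13 library had one. These 2 genes had the widest peaks of the 10 in every DMSO library.

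Peaks at the other loci were narrower and weaker in DMSO. The widest at Plagl1 measured 2684, 5049 and 2131 bp, that at Peg3 and Usp29 3810, 4824 and 1156 bp, that at Peg10 and Sgce 1745, 2071 and 1691 bp, and that at Impact (chr18:12972252-12992948) 1411, 2574 and 983 bp. None of these genes had a peak with dTAG-13 apart from 1 of 130 bp inside Usp29 in replicate 3. Ndn had no H3K9me3 peak in any library.

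Snrpn differed from the rest. Its widest DMSO peaks measured 2615, 2695 and 1207 bp. Those of replicates 1 and 2 overlapped the downstream promoter printed above. In replicate 3 the widest peak lay beside that promoter, and another peak of 654 bp overlapped it. With dTAG-13, replicate 1 had no peak in the gene and 5 kb around it, whereas replicates 2 and 3 had 24 and 52 peaks that covered 7135 and 18255 bp. The DMSO libraries had 5626, 8519 and 4970 bp, so that replicate 2 lay within their range and replicate 3 above it. The widest peaks of dTAG-13 replicates 2 and 3 were 884 and 1211 bp. In DMSO 9, 16 and 9 peaks lay in the same region. These sums are over the whole gene and 5 kb around it, and not over the promoter. Of the promoter window printed above, 76 bases were covered in dTAG-13 replicate 2 and 0 in replicates 1 and 3. In DMSO 213, 258 and 102 bases of it were covered.

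H3K27Ac, a mark of active promoters and enhancers, and binding of RNAPII and MED23 were compared at the same starts. H3K27Ac peaks lay within 5 kb of 5, 7 and 5 of the 10 gene starts in DMSO and of 4, 6 and 3 with dTAG-13 (two-sided exact permutation test, p = 0.4), where 32.2% of all gene starts had one in every DMSO library. Over all gene starts the share with a peak was 35.6%, 37.7% and 35.3% in DMSO and 21.9%, 38.2% and 23.8% with dTAG-13. RNAPII peaks lay at 6 and 5 starts in DMSO and at 5 and 3 with dTAG-13, where 23.9% of all starts had one in both DMSO libraries, and 24.9% of all starts had one in each DMSO library and at most 14.1% with dTAG-13. MED23 peaks lay at 7 and 7 starts in DMSO and at 3 and 3 with dTAG-13, where 41.0% had one in both DMSO libraries, and 42.9% and 42.8% of all starts had one in DMSO and 15.2% and 14.1% with dTAG-13. The lower numbers among the members thus went with lower shares over all gene starts. The dTAG-13 libraries had fewer peaks: 8182 and 7689 against 19853 and 19194 for RNAPII, and 15335 and 14551 against 63045 and 58925 for MED23. With the 10000 peaks of highest fold enrichment taken from each library, the mean number of members with a peak was higher with dTAG-13 than in DMSO, by 0.333 for H3K27Ac and 1.5 for MED23.

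No H3K27Ac, RNAPII or MED23 peak lay within 5 kb of the annotated start of Mest in any library. Inside the gene there were 2 H3K27Ac peaks, in dTAG-13 replicate 2 alone, of at most 2.84-fold. At Peg3 and Usp29 the highest RNAPII fold enrichment was 22.3 and 22.4 in DMSO and 9.86 and 9.13 with dTAG-13, while Peg3 RNA was at 0.67 on the log2 scale at 24 h. At Impact MED23 was 24.2 and 22.0 in DMSO and 5.00 and 4.92 with dTAG-13, while Impact RNA was at -0.41. Ndn, Peg10, Plagl1 and Sgce had a MED23 peak in both DMSO libraries and in neither dTAG-13 library, a pattern found at 25.0% of all gene starts. Nnat had an H3K27Ac peak within 5 kb in DMSO replicate 2 alone (15.2-fold) and in dTAG-13 replicates 1 and 2 (at most 3.59-fold and 4.16-fold). The nearest peak lay 4829 bp from the start in DMSO replicate 2. In DMSO replicates 1 and 3 it lay 5300 and 5336 bp away, just outside the window. With dTAG-13 it lay 2063, 277 and 5490 bp away in replicates 1, 2 and 3, so the fold values are not those of the same peak.

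Nascent RNA was compared to follow transcription itself. TT-SLAM-seq values are FPKM over converted reads, scaled to 6480611 to 24259317 reads per library, and 98.3% to 99.4% of the low values came out within 0.1 of a whole number of reads. Only Peg3, Peg10 and Impact passed the filter of 0.5 FPKM in 3 libraries. None was called at 2 h, 6 h or 24 h (limma on log2(FPKM + 0.5)), where 0.225%, 0.569% and 3.40% of the 13357 genes were. An unadjusted p below 0.05 was reached by 0, 0 and 2 of the 3, and by 2830, 3544 and 6315 of the 13357 genes. Peg3 was higher at 24 h by a log2 difference of 0.49 ± 0.09 (adjusted p = 0.0023), at 1.62, 1.72 and 1.92 FPKM against 1.10, 1.07 and 1.14 in DMSO. Impact was lower by -0.36 ± 0.13 (adjusted p = 0.045), at 1.82, 1.77 and 2.14 FPKM against 2.79, 2.42 and 2.57. Peg10 measured 4.35, 4.92 and 5.27 FPKM at 24 h against 7.65, 7.20 and 4.34 in DMSO, groups that overlapped.

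**Figure D4:**
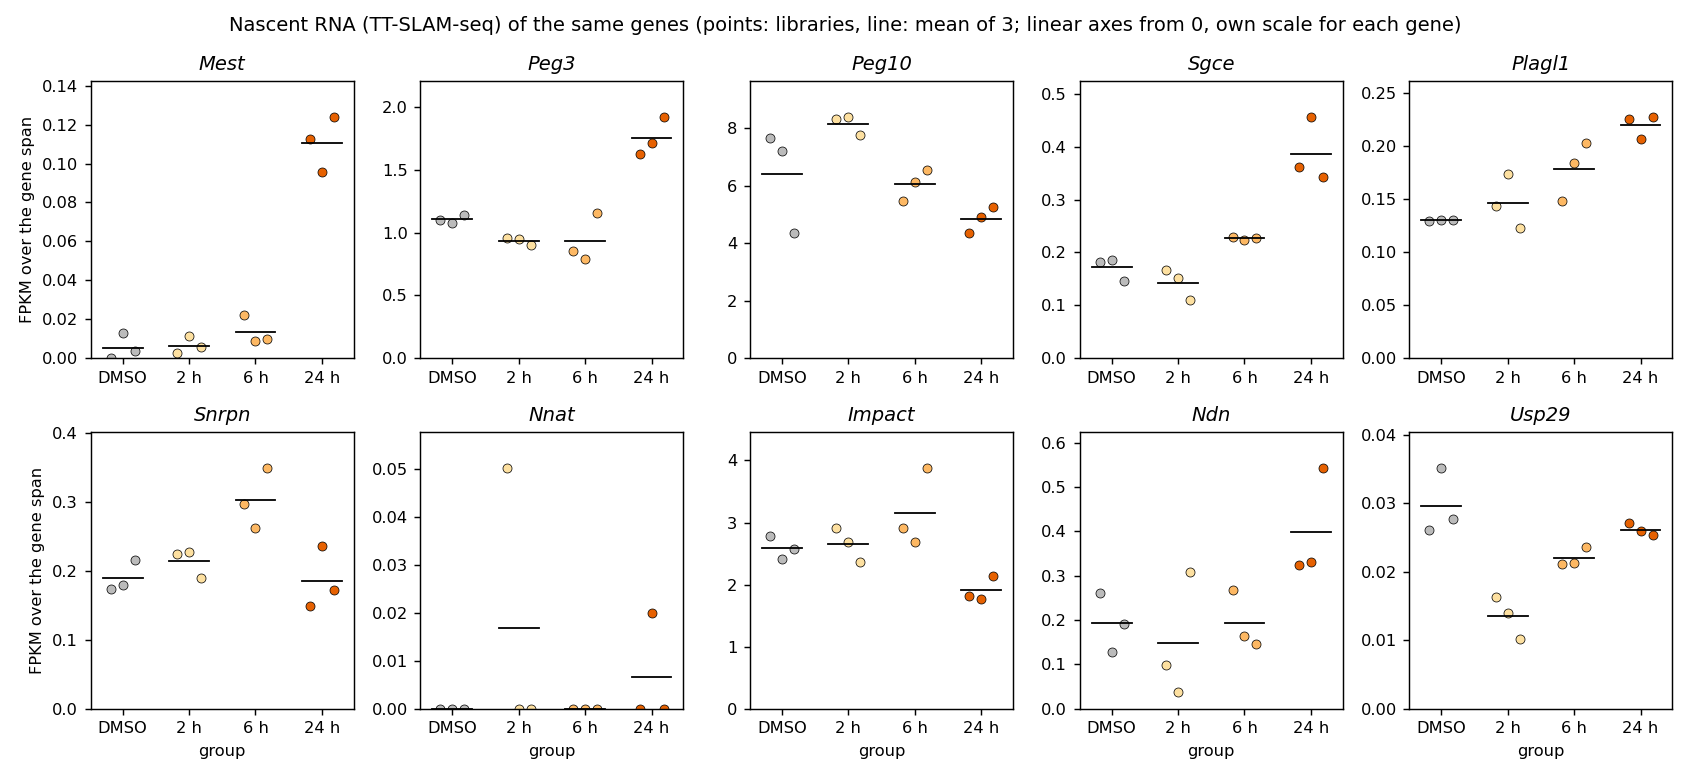
TT-SLAM-seq FPKM over the gene span for the 10 genes at each dTAG-13 time, on linear axes that start at 0 with a scale of their own for each gene; points are libraries and lines are means of 3. All 3 Mest libraries at 24 h lay above every DMSO library, and 49.6% of the genes tested had groups that did not overlap at 24 h.

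For the genes under the filter, whole reads were recovered from the values and tested with limma voom, an alternative added after the data had been seen. Mest had 0, 4 and 1 reads in the DMSO libraries, 9, 4 and 4 at 6 h and 68, 49 and 20 at 24 h. The log2 difference at 24 h was 3.76 ± 0.68 (adjusted p = 0.00017), and 6.32% of the 20039 genes were called higher by this method. The 24 h values of 0.112, 0.0958 and 0.124 FPKM were small beside those of Peg10. Sgce was higher at 24 h by 0.84 (adjusted p = 0.00011), and Impact and Peg10 were lower by -0.82 and -0.73, all under the fold limit. For Peg10 the fit on FPKM gave -0.33 (adjusted p = 0.17), so its lower nascent level at 24 h passed the adjusted p by reads alone. Peg3 was at 0.28 ± 0.12 at 24 h by reads (adjusted p = 0.066), so its higher nascent level passed in the fit on FPKM alone. The 2 fits differ also in scaling, since the reads were scaled between libraries by median ratios over genes and the FPKM were not. With centring on the median, the fit on FPKM gave -0.578 for Peg10 and 0.245 for Peg3.

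Usp29 was called lower at 2 h by reads (-1.03 ± 0.20, adjusted p = 0.0021), where 1.30% of genes were. Its libraries held 63, 47 and 34 reads at 2 h and 45, 105 and 75 in DMSO, or 0.0163, 0.0140 and 0.0102 FPKM against 0.0261, 0.0352 and 0.0278. No member was called at 6 h by reads. Under the fold limit, Snrpn was higher at 6 h by reads (0.535, adjusted p = 0.014). Peg3 (-0.392) and Usp29 (-0.575) were lower at 6 h, both at an adjusted p of 0.037. Peg10 was higher at 2 h (0.52, adjusted p = 0.013), and Usp29 lower at 24 h (-0.545, adjusted p = 0.019). Snrpn was at -0.41 at 24 h by reads (adjusted p = 0.036), while its FPKM of 0.149, 0.236 and 0.172 overlapped those of DMSO at 0.174, 0.179 and 0.215. Plagl1 was at 0.38 (adjusted p = 0.059). Ndn held 29, 25 and 13 reads at 24 h against 7, 6 and 8 in DMSO (0.56 ± 0.49). Nnat had 3 reads over the 12 libraries and no change was detectable at this depth.

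Parental mESCs asked what level the genes have without the tag. The comparison uses the DMSO libraries of the time course, as does that of NPCs. Parental cells were untreated and the tagged cells received DMSO, so tag, clone and treatment cannot be told apart here. Mest and Nnat were higher in parental cells, and Peg10, Sgce, Plagl1 and Ndn lower, 2 and 4 members where 2.25% and 9.15% of the 17458 genes tested were called higher and lower. By the adjusted p alone 2 were higher and 7 lower, against 25.0% and 41.0% of all genes. Mest measured 65.4, 64.3 and 63.1 TPM in parental cells, a log2 difference of 6.11 ± 0.10 from tagged DMSO cells (adjusted p = 4.3e-10). Parental cells and tagged cells at 96 h overlapped in Mest and were the 2 highest groups, followed by the shERV line with dTAG-13 at 18.3 TPM. Nnat measured 11.2, 10.1 and 10.6 TPM in parental cells (2.85 ± 0.12, adjusted p = 6.2e-08).

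Peg10 was far lower in parental cells, at 52.4, 51.6 and 53.3 TPM against 344, 344 and 331 TPM (-2.68 ± 0.03, adjusted p = 1.8e-11). Sgce measured 2.60, 2.13 and 2.12 TPM (-1.87 ± 0.07), so both genes of this pair were lower. Plagl1 measured 1.76, 3.69 and 1.51 TPM (-1.63 ± 0.23) and Ndn 2.60, 3.17 and 3.02 TPM (-1.06 ± 0.07). The Ndn difference was under the fold limit without parental replicate 1 (-0.99), with a pseudocount of 1 (-0.96) and with centring (-0.87). Peg3 was at -0.97 and Snrpn at -0.46, with adjusted p of 7.7e-09 and 1.3e-06, both within 2-fold. Impact was at -0.15, a sign that turned with centring (0.04), and Usp29 at -0.22 (adjusted p = 0.29). Centring moved all changes of this comparison up by 0.19 and changed the split from 393 higher and 1598 lower to 624 higher and 1161 lower.

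Among the other lists, Igf2 was lower in parental cells, at -5.62 on the log2 scale, and Trim28 higher by 1.16, and 0 of 15 other paternally expressed genes tested were higher and 6 lower. Of 23 maternally expressed genes, 0 were higher and 6 lower. Of 16 feeder fibroblast markers 7 were higher and 1 lower, with Postn at 3.31 and Col1a2 at 2.98, and the 16 markers other than Tagln summed to 151.7 to 154.8 TPM against 58.6 to 60.3 TPM in tagged DMSO cells. Tagln alone averaged 39.3 TPM against 299.7 TPM, which made the sum of all 17 lower in parental cells, at 190 to 195 TPM against 353 to 368 TPM. All 7 defining feeder markers but 1 exceeded 1 TPM in at least 1 parental library. The labels describe expansion of mESCs on irradiated mouse embryonic fibroblasts, whereas the methods of the study describe removal of these fibroblasts before mESCs were seeded for RNA-seq. The part of such cells in the parental level of Mest was not tested.

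NPCs gave a view of the genes in a differentiated cell type. Usp29, Plagl1, Nnat, Sgce, Ndn, Peg3 and Mest were higher in NPCs than in mESCs in DMSO, and Snrpn and Impact lower, 7 and 2 members where 25.9% and 20.7% of all genes were called (by the adjusted p alone 7 and 3, against 49.5% and 39.5%). Usp29, low in all mESC groups, measured 22.6, 24.1 and 23.4 TPM (3.57 ± 0.17, adjusted p = 2.5e-08), and Plagl1 98.0, 93.5 and 97.3 TPM (3.55 ± 0.23, adjusted p = 1.8e-07). Peg3 measured 194, 191 and 194 TPM, a range that overlapped that of the tagged mESCs at 96 h. Mest measured 3.15, 2.72 and 2.79 TPM, above DMSO by 1.85 ± 0.10 and below the level at 24 h of dTAG-13. Impact was lower at 36.8, 38.1 and 37.3 TPM (-1.32 ± 0.02), Snrpn at -1.06 and Peg10 at -0.80, the last within 2-fold. Centring moved all changes down by 0.40 and changed the split of called genes from 4522 higher and 3608 lower to 3302 higher and 4910 lower.

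The shERV line asked whether the hairpins against ERV RNA alter the response. These libraries were made from total RNA after removal of ribosomal RNA, so levels are not set beside those of the other groups as tests. With dTAG-13 for 24 h Mest was the only member called, where 2.38% of the 16166 genes were called higher. It measured 18.97, 18.3 and 17.5 TPM against 0.433, 0.523 and 0.455 TPM in DMSO, groups that did not overlap, as in 59.0% of all genes, with a log2 difference of 4.27 ± 0.10 (adjusted p = 1.5e-10). With dTAG-13 and Dox it measured 0.527, 0.613 and 0.524 TPM, lower than with dTAG-13 alone by -4.15 ± 0.10 (adjusted p = 2e-10), where 1.96% of genes were called lower. Against DMSO the Dox group differed by 0.12 ± 0.10 (adjusted p = 0.48).

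**Figure D5:**
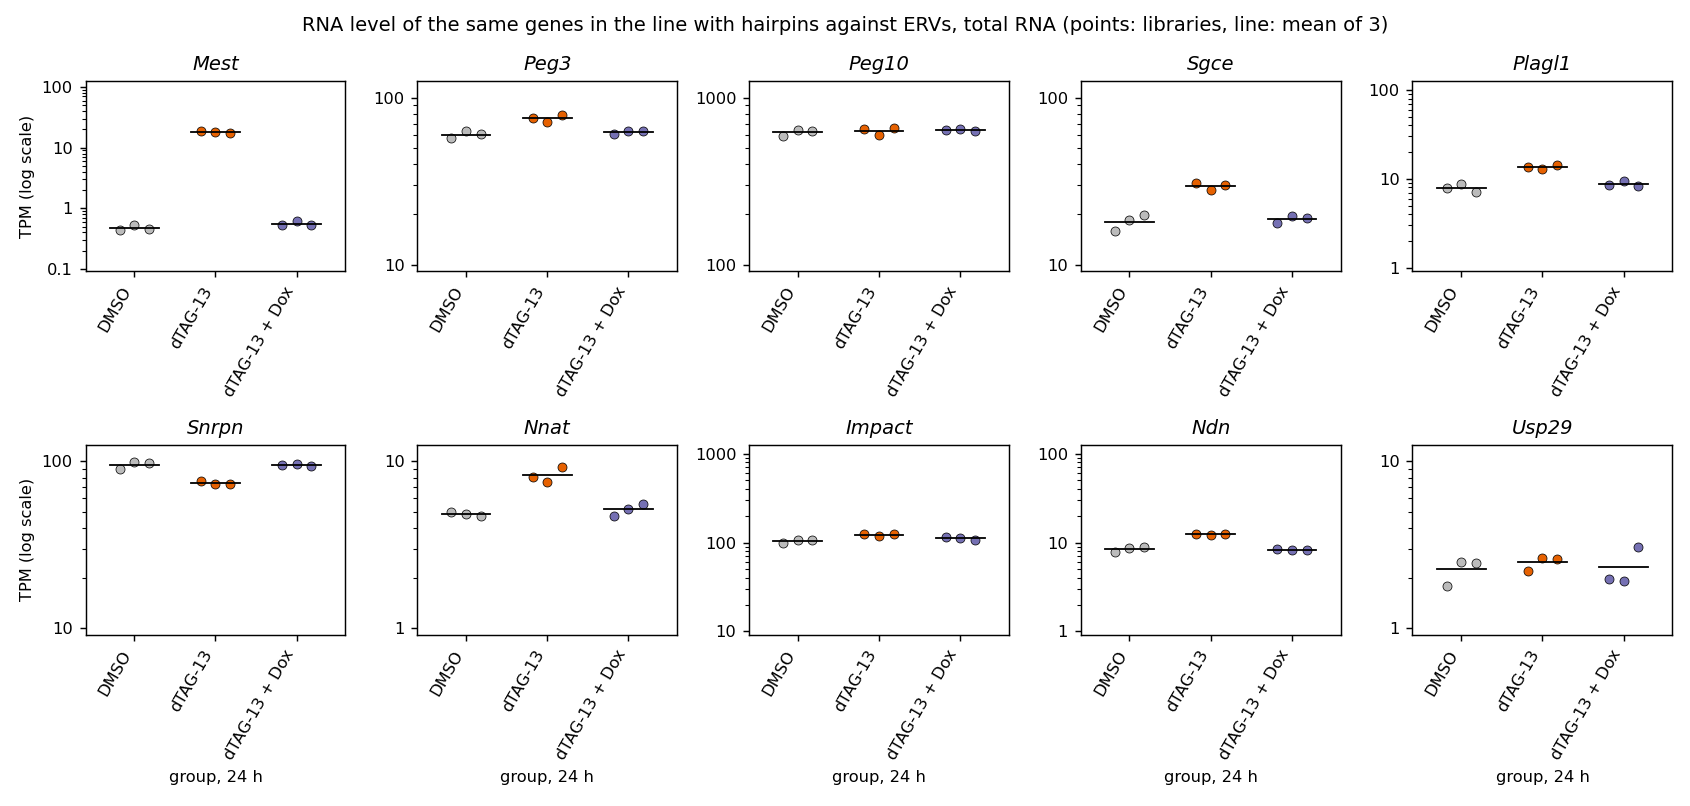
TPM of the 10 genes on a log axis in the shERV line in DMSO, in dTAG-13 for 24 h and in dTAG-13 with Dox; points are libraries and lines are group means. All 3 Mest libraries with dTAG-13 lay above 17 TPM and the other 6 below 0.62 TPM.

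Smaller differences of the same line passed the adjusted p and not the fold limit. With dTAG-13, Plagl1 was higher by 0.76, Nnat by 0.72, Sgce by 0.71, Ndn by 0.52, Peg3 by 0.33 and Impact by 0.23 on the log2 scale, and Snrpn lower by -0.36. With Mest these were 7 higher and 1 lower, against 41.2% and 12.8% of all genes. With Dox added, the same 7 genes had differences of the opposite sign from dTAG-13 alone, from -0.14 for Impact to -0.66 for Sgce and 0.35 for Snrpn, in comparisons that share the dTAG-13 libraries, and 29.3% and 17.5% of all genes were lower and higher with Dox. Peg10 measured 593, 639 and 636 TPM in DMSO and 648, 596 and 655 TPM with dTAG-13, which overlapped. Between dTAG-13 with Dox and DMSO no member had an adjusted or an unadjusted p below 0.05 in limma, and over all genes 3 of 16166 were called (0.0186%) and 2911 had an unadjusted p below 0.05. TRIM28 protein and ERV RNA were not analysed here.

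Of the lists, 0 of 18 other paternally expressed genes tested, 3 of 23 maternally expressed ones (H19 by 1.48, Asb4 by 1.40, Calcr by 1.13) and 2 of 19 neighbours were called higher in the shERV line with dTAG-13 and none of these lower, and 3 of 15 imprint maintenance genes were called lower, against 1.44% of all genes. Among the feeder markers Tagln averaged 692 TPM in DMSO, 1389 TPM with dTAG-13 and 695 TPM with Dox. The other 16 summed to 173.1 to 187.6, 195.6 to 217.4 and 188.3 to 196.5 TPM in the same order. By group means, Col1a1 (72.4, 70.6 and 77.0 TPM), Col3a1 (5.37, 3.43 and 5.49 TPM), Col1a2, Mmp2 and S100a4 were not highest with dTAG-13. The remaining markers of the list were, among them Col5a1 (28.7, 52.5 and 30.8 TPM) and Thy1 (3.49, 5.88 and 3.90 TPM). Of 15 feeder markers tested 1 was called higher with dTAG-13, and 2 of 7 defining markers were below 1 TPM in all libraries of each group. By the adjusted p alone 11 of the 15 changed, where 41.2% of all genes were higher and 12.8% lower. Their median log2 change was 0.27, against 0.14 over all genes. The 8 mESC markers summed to 2319 to 2679 TPM in DMSO, 1152 to 1187 TPM with dTAG-13 and 2556 to 2606 TPM with Dox. With dTAG-13, 6 of the 8 were called lower and none higher, where 1.44% of all genes were called lower. At 24 h of the time course 3 of the 8 were called lower, where 2.01% of all genes were. The part of the feeder and mESC markers in the Mest level was not tested.

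The 24 h response of Mest was larger in the shERV line than in the time course. The difference of the 2 log2 changes was 1.50 ± 0.19 (adjusted p = 4.7e-05 over 17653 genes), past the 2-fold limit, where 2.11% of genes had a larger change in the shERV line. By the adjusted p alone 5 members had a higher and 2 a lower value of this difference, against 26.2% and 25.2% of all genes. The lines differ in clone and RNA kit as well, which cannot be told apart here.

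Over the 21 mRNA libraries of the time course, parental cells and NPCs, the genes whose log2 levels followed Mest most closely were Postn (Pearson r = 0.967), Glb1 (0.962), Thbs2 (0.957), Fos (0.956) and Col6a1 (0.945). Postn and Col6a1 encode matrix proteins, and Postn belongs to the feeder marker list. The libraries fall into 7 groups, so these values describe shared group levels. Among the 10 genes, Peg3 and Sgce had r = 0.984 and Peg3 and Ndn 0.972, whereas Peg10 and Sgce, with divergent starts 99 bp apart, had 0.681 and Peg3 and Usp29 0.777. Mest and Nnat had 0.829, and Snrpn was negative with all but Impact (0.216). The gene most like Peg3 was Fam102b, that most like Snrpn was Wdr46 and that most like Plagl1 was Sesn3, at 0.994, 0.992 and 0.990.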

How the data were processed

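RNA-seq values were TPM, TT-SLAM-seq values FPKM and ChIP-seq values peaks, all as deposited by the authors. Per the labels the authors aligned RNA-seq reads with STAR (2.7.5a) and made the TPM with StringTie (2.0.6) on GENCODE VM19, and for TT-SLAM-seq the authors counted reads with T>C conversions per gene and scaled them to FPKM. The authors called peaks per library with MACS2 (settings not given in the sources used here), and each deposited peak has a signal height, a fold enrichment over background and −log10 p and q values. The peak lists are not scaled between libraries, so their numbers move with depth and enrichment.

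Rows that repeated a gene ID (4 to 9 per table) were summed. Genes with at least 1 TPM, or 0.5 FPKM, in at least 3 libraries were tested with limma (3.58.1, R 4.3.3) on log2(value + 0.5) with all groups of a fit sharing the spread, Benjamini-Hochberg adjustment over all genes, and calls at an adjusted p below 0.05 with more than 2-fold change. Fold changes on this scale understate the change of low genes. ± marks the standard error with n = 3 per group. Peak counts were compared by a two-sided exact permutation test, or as values for 2 against 2. The steps were tested on simulated data. The members, the gene lists and the rule for named genes (all members, and at most 4 called genes per list and comparison, by size of change) were chosen with earlier results of these data known. Alternatives were pseudocounts of 0.1 and 1, no filter, a mean of at least 5, centring on the median gene, only the groups compared, no fold limit, a replicate block, leaving out each library, stricter peaks and windows of 1 kb and 10 kb. Reads recovered from FPKM, the transcript starts and the comparison of dTAG-13 with Dox against DMSO were added after seeing the data.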

Additional observations from a re-analysis of the deposited data

Results flagged for a closer look

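The log2 change with 24 h of dTAG-13 differed between the hairpin (shERV) line and the line of the time course for 7 of the 10 genes, by the limma interaction term adjusted over 17653 genes. Of the 7, 5 were higher and 2 lower, where the same test was passed by 26.2% of all genes in the higher and 25.2% in the lower direction. Each value is the change in the shERV line minus that in the time course. For Mest it was 1.5 (adjusted p = 4.7e-05) and every library with dTAG-13 lay above every DMSO library in both lines. Snrpn differed by 0.77, Impact by 0.65, Ndn by 0.52 and Peg10 by 0.49, while Plagl1 differed by -0.47 and Peg3 by -0.34, all 6 within 2-fold. Impact was lower in the time course (-0.41) and higher in the shERV line (0.23), and the sign of its change thus differed between the lines. The lines differ in clone, hairpin construct and RNA kit, which cannot be told apart.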

How the results depend on the processing

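Of the single-gene values, 225 kept their direction and their side of the threshold under the alternatives other than leaving out a library and 4 did not, and 179 did and 1 did not when a library was left out. The exceptions were Plagl1 with centring (0.94 at 24 h, 0.91 at 96 h) and Ndn in parental cells (-0.96 with a pseudocount of 1, -0.87 with centring, -0.99 without parental replicate 1). Without the fold limit the members changed were 1 at 2 h, 4 at 6 h, 8 at 24 h, 8 in the shERV line with dTAG-13, 8 with Dox against dTAG-13 and 2 in TT-SLAM-seq at 24 h, and with recovered reads 1 at 2 h and 1 at 24 h in TT-SLAM-seq. Leaving out a library gave 3 to 4 members at 24 h, 8 to 9 at 96 h and 5 to 6 in parental cells.

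The mean number of members with a peak, dTAG-13 minus DMSO, was -6.0 for H3K9me3 and -1.667 both with the 10000 peaks of highest fold and with a −log10 q of at least 5. For H3K27Ac it was -1.333, and 0.333 with the 10000 peaks, -0.333 within 10 kb and -2.167 to -0.667 on leaving out a library (-0.667 without DMSO replicate 2 or dTAG-13 replicate 3, -2.167 without dTAG-13 replicate 2). For RNAPII it was -1.5, and -3.5 with any transcript start and -2.5 to -0.5 on leaving out a library (-2.5 without dTAG-13 replicate 1, -0.5 without replicate 2). For MED23 it was -4.0, and 1.5 with the 10000 peaks, -6.5 with the q limit and -2.0 within 10 kb. The causes were not tested.

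Same-numbered replicates did not deviate together (r from -0.205 to 0.177, with no comparison above 0.1 in all 3 pairs), and with the replicate block 3 members changed at 24 h, 8 at 96 h, 6 in parental cells and 9 in NPCs, as without it. Over all genes the number called was 2179 at 24 h (985 to 2821 over the alternatives), 5862 at 96 h (3552 to 6527), 1991 in parental cells (944 to 2741), 8130 in NPCs (4759 to 9032), 617 in the shERV line with dTAG-13 (263 to 887), 558 with Dox against dTAG-13 (237 to 798), 1540 for the difference between lines (594 to 2028), 67 at 2 h (31 to 111) and 173 at 6 h (58 to 313). In TT-SLAM-seq it was 30 at 2 h (9 to 385), 76 at 6 h (10 to 350) and 454 at 24 h (60 to 2563). Centring moved all changes down by 0.16 in the shERV line with dTAG-13 and by 0.24 in TT-SLAM-seq at 24 h. With it the split of calls, higher and lower, went from 385 and 232 to 246 and 353 in the shERV line with dTAG-13, from 241 and 317 to 293 and 252 with Dox, from 333 and 121 to 141 and 241 in TT-SLAM-seq at 24 h, and from 373 and 1167 to 560 and 895 for the difference between lines. Depth limits Mest, Nnat, Ndn and Usp29 in TT-SLAM-seq most.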
